A study of Mus musculus with 4 samples.

Results

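The genes described here are 46 imprinted genes of 21 loci in the mouse, taken by their symbols from a list, out of 46603 genes in the table. All 46 symbols were found, each with 1 gene identifier. The list leaves out the Kcnq1 and Igf2r domains. Polyadenylated RNA was sequenced from mouse embryonic stem cells, with 2 biological replicates that were wild type (Gsk3a+/+;Gsk3b+/+) and 2 that lacked both forms of glycogen synthase kinase 3 (Gsk3a-/-;Gsk3b-/-), a kinase that marks beta-catenin for degradation. Both genotypes grew in serum with LIF (leukaemia inhibitory factor) over a feeder layer of irradiated mouse embryonic fibroblasts, so RNA of feeder cells can be present in every sample. The labels give embryonic day 16 for all 4 samples, the design text gives another value, and neither says whether a genotype is 1 clone or several. The study compared the transcriptomes of the genotypes.

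Imprinted genes are expressed mainly from the chromosome inherited from one parent. Methylation set in the egg or the sperm marks a control region at most of these loci, and after fertilization the protein ZFP57, which binds methylated TGCCGC, and its partner TRIM28 hold the mark. A smaller class, with Sfmbt2, Gab1 and Slc38a4, is imprinted in extraembryonic tissue through histone methylation of the maternal copy. Cultured embryonic stem cells are known for unstable imprints. The counts here do not tell the parental copies apart, so the allele named for a gene is textbook background and was not measured.

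The deposited table compares a group A with a group B, and no header or label says which genotype each group is. All values are therefore given for group B over group A. Reads of single libraries were recovered from the group means as whole numbers (numbered A1, A2, B1 and B2, with no link to the labels' replicate numbers), and values of a gene are always listed in this order. Library totals ranged from 112655210 to 146326307 counts. Of the targeted genes, Gsk3a had 6353, 7104, 1697 and 1347 normalized counts, that is reads over size factor, and Gsk3b had 5438, 6285, 5051 and 5002. All 10 embryonic stem cell markers were present, the lowest at 5655 normalized counts. The 17 feeder fibroblast markers were all counted in every library and summed to 313131, 224028, 158604 and 452533. The 18 primitive endoderm markers, of which 17 had a count in every library, summed to 149909, 113080, 461050 and 242708. Summed feeder markers were thus highest in B2 and lowest in B1, whereas summed endoderm markers were higher in both B libraries, with B1 highest. Of 17 endoderm markers with a mean of at least 10, both B libraries lay above both A libraries for 12 and below for 1 (Ttr). The other 4 overlapped, where 26.4% of all genes lay above and 26.0% below. In a linear model (limma) 5 of 17 endoderm markers had an adjusted p under 0.05, against 2.01% of all genes. At an unadjusted p under 0.05 it had 13, against 20.7%. Of the endoderm markers 1 of 18 passed the authors' test, with 12 at an unadjusted p under 0.05, where all genes had 3.46% and 10.5%. In that test the threshold was also passed upward by 3 of 12 macrophage, 2 of 10 mesoderm and 1 of 10 trophectoderm markers, and downward by 2 of 10 stem cell and 4 of 10 neuroectoderm markers, where 1.54% of all genes passed upward and 1.92% downward. None of the 941 protein-coding genes of the X chromosome had a count, against 18311 of 20573 on the autosomes. The 183 of the Y chromosome and the 13 of the mitochondrial genome had no count either. Whether these chromosomes were left out of the processing is not stated.

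Promoter sequences are shown first for Plagl1, the listed gene past the threshold, and for 3 genes that lie inside another imprinted gene. They were picked as windows that hold the hexamer bound by ZFP57. Each runs 5′ to 3′ on the gene's strand, from 250 bases before to 50 bases after a RefSeq start (GRCm38.p6, the mm10 build), and capitals mark TGCCGC or its reverse complement GCGGCA. The positions are chr10:13090582-13090881 (plus strand) for Plagl1, chr2:152686898-152687197 (plus) for Mcts2, chr2:157559828-157560127 (plus) for Nnat and chr6:58907077-58907376 (minus) for Nap1l5.
Plagl1: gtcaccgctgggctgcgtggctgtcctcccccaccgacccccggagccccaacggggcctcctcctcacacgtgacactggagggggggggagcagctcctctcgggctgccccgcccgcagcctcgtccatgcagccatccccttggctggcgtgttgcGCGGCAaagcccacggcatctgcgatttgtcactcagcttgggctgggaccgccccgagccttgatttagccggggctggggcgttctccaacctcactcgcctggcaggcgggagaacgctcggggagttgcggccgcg
Mcts2: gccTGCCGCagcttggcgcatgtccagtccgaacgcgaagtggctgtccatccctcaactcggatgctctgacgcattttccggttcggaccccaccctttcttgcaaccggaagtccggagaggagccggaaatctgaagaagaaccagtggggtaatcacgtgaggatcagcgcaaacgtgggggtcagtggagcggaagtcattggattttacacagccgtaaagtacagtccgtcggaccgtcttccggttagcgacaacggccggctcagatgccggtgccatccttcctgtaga
Nnat: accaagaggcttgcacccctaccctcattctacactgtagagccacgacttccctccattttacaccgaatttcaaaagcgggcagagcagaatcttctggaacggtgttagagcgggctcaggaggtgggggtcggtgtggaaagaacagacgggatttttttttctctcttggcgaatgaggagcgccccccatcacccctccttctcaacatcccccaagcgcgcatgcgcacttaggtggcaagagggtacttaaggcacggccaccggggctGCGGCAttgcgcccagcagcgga
Nap1l5: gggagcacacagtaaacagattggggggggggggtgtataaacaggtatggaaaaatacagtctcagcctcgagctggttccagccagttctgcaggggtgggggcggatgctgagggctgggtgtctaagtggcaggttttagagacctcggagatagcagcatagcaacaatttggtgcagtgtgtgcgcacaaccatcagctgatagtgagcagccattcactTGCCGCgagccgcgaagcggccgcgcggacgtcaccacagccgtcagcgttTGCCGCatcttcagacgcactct
The hexamer occurred once in the windows of Plagl1, Mcts2 and Nnat and at 2 places in that of Nap1l5. No window of Sfmbt2, of the nested gene Zrsr1 or of the host genes H13, Blcap and Herc3 held it, while 1 of 2 windows of the host Commd1 and 1 of 2 of Grb10 did. Of the 37 listed genes with a RefSeq promoter, 13 (35.1%) held it in at least 1 window on either strand, against 13.1% of 27025 genes. A gene with more windows has more places for a match. Counted by window, 14 of 62 (22.6%) held it, against 11.6% of 32851 windows. The windows of the listed genes also had more CpG dinucleotides, with a median of 16 against 7 in all windows, and the hexamer itself holds a CpG. A match describes these letters only.

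Among the 46 genes, Plagl1 rose in group B and no other gene passed the threshold, an adjusted p of 0.05 over all genes. Of 46 genes 45 were tested, and 1 was higher and 0 were lower. Over all 30237 tested genes 3.46% passed in the authors' deposited table, 1.54% higher and 1.92% lower, so the 2.22% of the imprinted genes was not a larger share. At an unadjusted p under 0.05 the authors' deposited table has 10 of the 45 genes (22.2%) against 10.5% of all. They are Plagl1, Grb10, Ddc, Nnat, H13, Meg3, Rian, Mirg, Sfmbt2 and Herc3. With limma, a linear model on log2(normalized count + 1), Plagl1 was again the only one past the threshold among 44 genes with a mean of at least 10, against 2.01% of 20465 genes, and 15 of the 44 had an unadjusted p under 0.05, against 20.7% of all genes. Without A1, A2, B1 or B2 this unadjusted count was 9, 4, 20 and 13 of 44, against 11.8%, 9.94%, 23.6% and 23.4% of all genes.

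Sfmbt2 at 1.87, Peg13 at 1.56, Plagl1 at 1.34 and Grb10 at -1.03 lay outside the 5th to 95th percentile of all genes (-1.002 to 0.99) in the log2 fold changes of the authors' deposited table. Over the 44 genes the authors' deposited table has a median log2 fold change of 0.09, beside 0.01 over all genes with such a mean, and the median absolute value was 0.35 beside 0.25. Both libraries of group B lay above both of group A for 17 genes and below them for 11. Together these are 63.6% of the 44, where 52.5% of all genes were so separated (26.4% above and 26.0% below). Maternally expressed genes had a median of 0.13 over 14 genes and paternally expressed genes a median of 0.06 over 28, from log2 fold changes of the authors' deposited table. Of the 14 maternally expressed genes 8 separated the groups with B higher and 4 with B lower, and of the 28 paternally expressed genes 8 and 6. An unadjusted p under 0.05 was found for 6 of 14 tested maternally expressed genes and 4 of 29 paternally expressed ones in the authors' deposited table. Among the 6, Meg3, Rian and Mirg lie on the same strand of the same domain, so they may not be independent of each other. Members of both classes went both ways, and the difference between the classes was not tested.

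**Figure D1:**
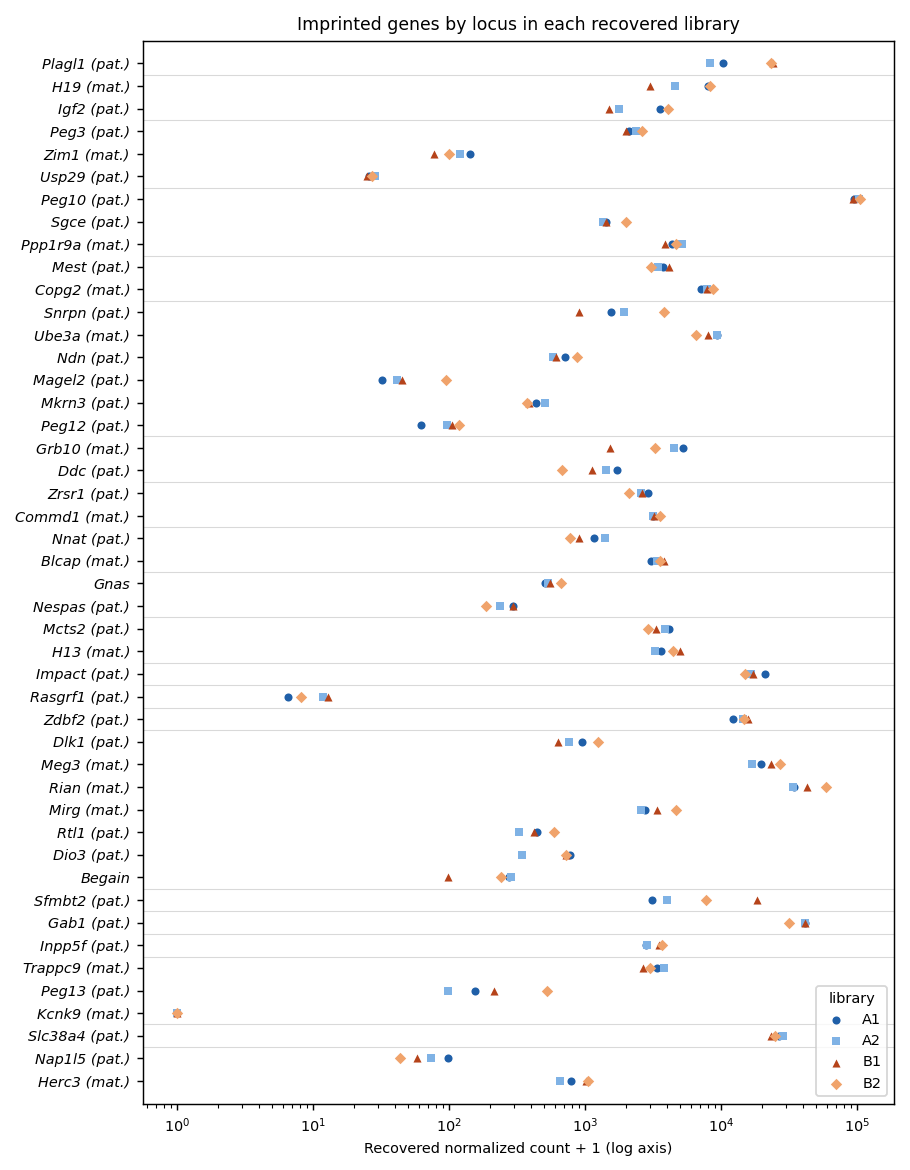
Recovered normalized counts plus 1 (log axis) of the 46 imprinted genes in libraries A1, A2, B1 and B2, grouped by locus, with the parental copy known to be expressed in brackets. The levels run from 0 for Kcnk9 to about 105408 for Peg10 in B2, and the points of both B libraries stand to the right of both A libraries for Plagl1.

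Levels ranged widely. Per kilobase of annotated exon, the highest mean level was that of Peg10, a retrotransposon-derived gene needed for the placenta, at 14853 normalized counts per kb. Gab1, an adaptor of receptor tyrosine kinases, followed with 7673 per kb and the amino acid transporter Slc38a4 with 6052 per kb. At the other end the Ras exchange factor Rasgrf1 had 0.80 per kb and a mean of 8.85, below the mean of 10 used for descriptions. The brain potassium channel Kcnk9 had no read in any library, which allows up to 3 counts in each. Of all 46 genes, 29 had a mean of at least 1000.

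**Figure D2:**
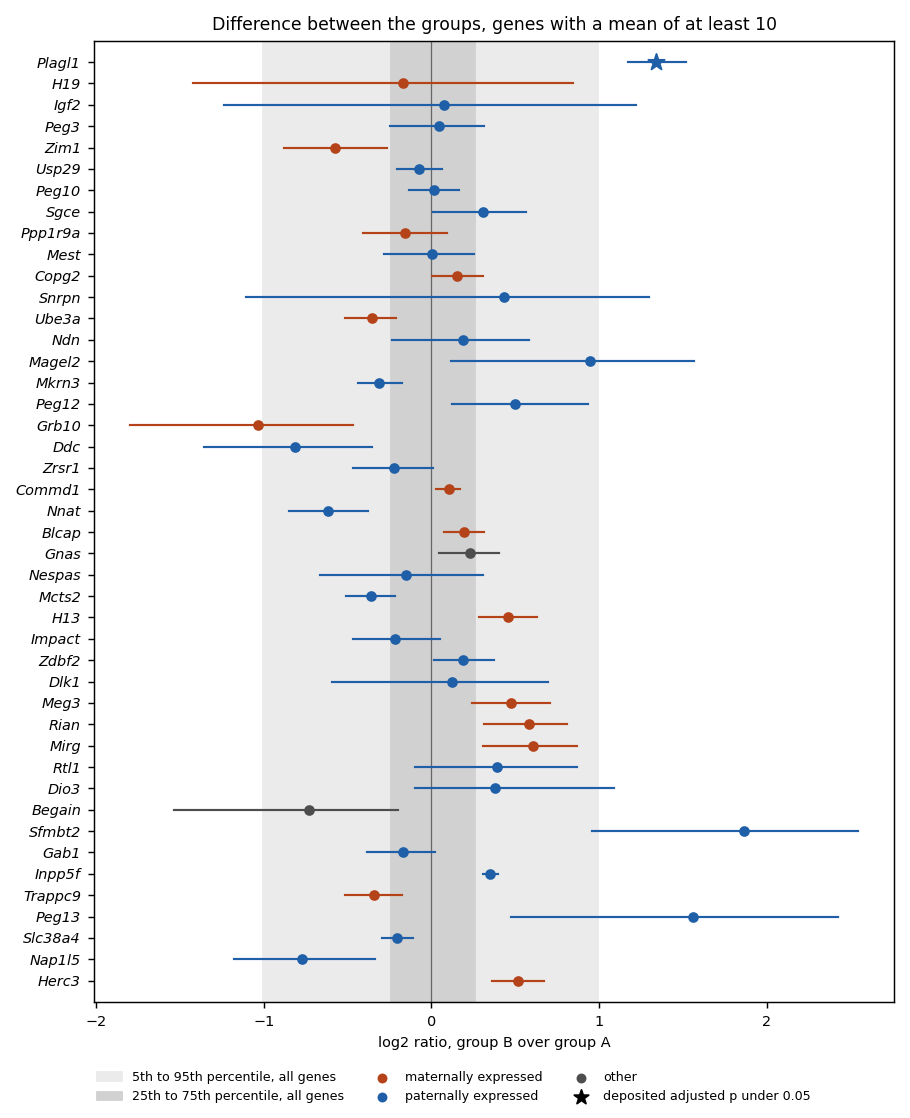
Log2 ratio of group B over group A for the 44 imprinted genes with a mean of at least 10: points are the authors' deposited values, lines run from the lowest to the highest of the 4 ratios of a B library to an A library, and grey bands span all genes with such a mean. Plagl1 (star) passed the threshold, while Sfmbt2 and Peg13 lie farther right with longer lines.

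Plagl1 encodes a zinc finger transcription factor that restrains proliferation and is expressed from the paternal copy (ENSMUSG00000019817, chromosome 10, 13060504 to 13131694, mm10). It had 10343, 8330, 23894 and 23311 normalized counts. B2 was 0.976 times B1, and both stood well above both A libraries. The mean went from 9337 in group A to 23603 in group B, a 2.53-fold rise in the authors' deposited table (1.34 on the log2 scale, adjusted p 1.55e-10). Limma gave 1.35 (SE 0.13, adjusted p = 0.0255). Without A1 the limma value was 1.502 (adjusted p = 0.139) and without A2 it was 1.19 (adjusted p = 0.308), and in both fits limma called 0 of 20465 genes, with 2420 and 2034 at an unadjusted p under 0.05. Without B1 it was 1.33 (adjusted p = 0.0153) and without B2 1.36 (adjusted p = 0.00882). The summed endoderm markers given above were also higher in both B libraries, though less alike in B1 and B2 than Plagl1, and their part in the rise was not tested. Summed feeder markers were highest in B2 and lowest in B1. In bulk RNA, fewer cells of a type and less RNA per cell cannot be told apart.

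Sfmbt2, a Polycomb-type repressor that is imprinted outside the embryo proper, had the largest log2 fold change of the 44 genes (chromosome 2, 10370510 to 10595253). It had 3126, 4020, 18235 and 7801 normalized counts. The groups did not overlap, but B1 was far above B2, which was 0.428 times B1. The authors' deposited table puts Sfmbt2 at 1.87 (adjusted p 0.446), and limma gave 1.75 (SE 0.39, adjusted p = 0.0820). It passed in limma without B1 (1.14, adjusted p = 0.0294) and without B2 (2.36, adjusted p = 0.00392), when 4.87% and 5.43% of all genes passed. Its order of B1 above B2 above the A libraries was also that of the summed endoderm markers given above, and their part in this difference was not tested. The other genes of this class differed less. Gab1 had 41088, 41434, 41679 and 31775, so that B2 alone stood low. Slc38a4 had 26785, 28412, 23173 and 24784, with both B libraries just below both A libraries (-0.20 with adjusted p 0.994, by the authors' deposited table).

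Grb10 and Ddc, neighbours on chromosome 11, were both lower in both B libraries without passing the threshold. Grb10 is a maternally expressed adaptor that inhibits insulin and IGF receptors (11930508 to 12038683). It had 5277, 4533, 1517 and 3277 normalized counts, so B2 stood 2.16-fold above B1. The authors' deposited table puts Grb10 at -1.03 (adjusted p 0.0939). Limma gave -1.13 (SE 0.35, adjusted p = 0.154), with values from -1.69 to -0.58 when 1 library was left out. Ddc, which makes dopamine from L-dopa and is paternally expressed in the heart, had 1718, 1427, 1117 and 670. The authors' deposited table puts it at -0.82 (adjusted p 0.223). Limma gave -0.85 (SE 0.27, adjusted p = 0.160), with values from -1.22 to -0.49 when 1 library was left out. B1 was the lower library for Grb10 and B2 for Ddc. The transcript 1700042O10Rik overlaps Ddc on the other strand, and had 158, 156, 67.8 and 53.2. It passed the threshold at -1.38 (adjusted p 0.0209, from the authors' deposited table). Whether counting used strand is not stated, so its reads and those of Ddc may not be separated.

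H19 and Igf2 share enhancers on distal chromosome 7, H19 being a maternal noncoding RNA and Igf2 a paternal fetal growth factor. H19 had 8050, 4602, 3001 and 8255 normalized counts. Igf2 had 3564, 1762, 1508 and 4101. The groups overlapped fully for both genes, and the libraries of a group differed by up to 2.75-fold. The authors' deposited table puts H19 at -0.17 and Igf2 at 0.07 on the log2 scale, each at an adjusted p of 1. In limma, leaving out 1 library turned the sign of both, with values from -1.02 to 0.44 for H19 and from -0.73 to 0.71 for Igf2. Both genes had the order B2, A1, A2, B1 from high to low, as did 12 of the 17 feeder fibroblast markers. This order was found in 3 of the 44 imprinted genes (6.82%) against 3.89% of all genes. The third is Dlk1, a membrane protein related to Notch ligands, with 951, 766, 631 and 1239. Feeder markers had a median log2 ratio of 0.99 for A1 over A2 and 2.06 for B2 over B1, and the part of feeder RNA in these genes was not tested.

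**Figure D3:**
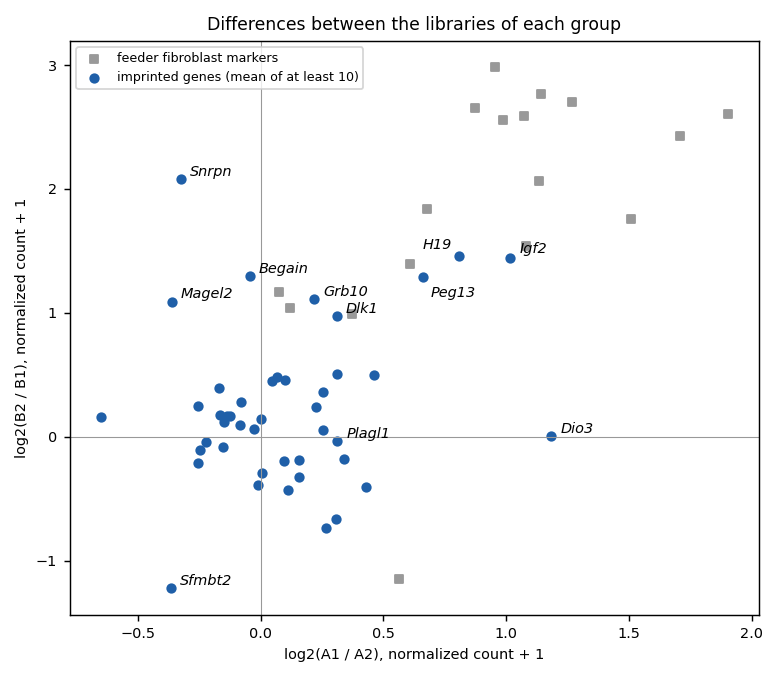
Difference between the libraries of group A (x axis, log2 of A1 over A2) and of group B (y axis, log2 of B2 over B1) for the 44 imprinted genes and 17 feeder fibroblast markers, all as normalized count plus 1. H19, Igf2, Peg13 and Dlk1 lie to the upper right with the feeder markers, and Snrpn stands apart at 2.08 on the y axis with a negative x value.

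In the Dlk1-Dio3 domain on chromosome 12, the 3 maternal noncoding RNAs were higher in both B libraries. Meg3, the first of them, had 19624, 16768, 23197 and 27320 normalized counts. Rian, which carries small nucleolar RNAs, had 34606, 33521, 43059 and 58726. Mirg, the host of a microRNA cluster with 14 annotated hairpins, had 2740, 2558, 3390 and 4665. The B libraries thus stood above the A libraries for all 3, by less than 2-fold. The authors' deposited table gives log2 values of 0.47 for Meg3 (adjusted p 0.195), 0.58 for Rian (0.429) and 0.60 for Mirg (0.430). When 1 library was left out, limma values ranged from 0.35 to 0.59 for Meg3, from 0.34 to 0.79 for Rian and from 0.36 to 0.82 for Mirg. Loss of these RNAs is a known defect of cultured stem cells, and here Meg3 stood at 1201 and Rian at 2330 normalized counts per kb as means of all libraries.

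The coding genes of the domain that are read from the paternal copy did not separate the groups. Rtl1, a retrotransposon-derived placental gene, had 446, 323, 417 and 590 normalized counts. Dio3, which inactivates thyroid hormone, had 778, 342, 727 and 728, so that A2 alone was low. Dlk1 overlapped as well, at 0.12 by the authors' deposited table (adjusted p 1). Begain, a coding gene at the edge of the domain with no parental copy assigned here, had 275, 284, 97.2 and 240. Both B libraries lay below both A libraries, with B1 far below the rest. The authors' deposited table puts Begain at -0.73 (adjusted p 0.633), and its limma values ranged from -1.51 to -0.22 when 1 library was left out. The maternal RNAs and Rtl1 lie on opposite strands.

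**Figure D4:**
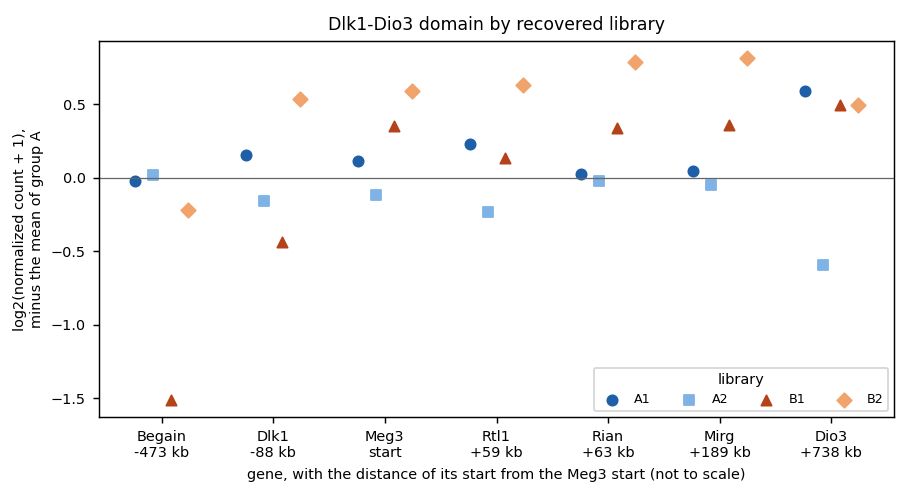
Log2 of normalized count plus 1, minus the mean of group A, for the 7 genes of the Dlk1-Dio3 domain in each recovered library, in order of position from the Meg3 start. Meg3, Rian and Mirg have both B libraries above both A libraries, Begain has B1 and B2 below, and the other genes overlap.

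At 5 loci a paternally expressed gene lies inside a host gene listed as maternally expressed. These pairs are Mcts2 in H13, Nnat in Blcap, Nap1l5 in Herc3, Zrsr1 in Commd1 and Peg13 in Trappc9. In 4 of the 5, all but Peg13, the authors' deposited table has a negative log2 value for the nested gene and a positive one for its host. None of these genes passed the threshold. The comparison was chosen after the values were seen.

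Mcts2, a retrogene related to a translation factor, had 4139, 3876, 3331 and 2907 normalized counts. Its host H13, the signal peptide peptidase, had 3612, 3240, 5011 and 4405. Both genes separated the groups, in opposite directions, at -0.36 and 0.46 by the authors' deposited table (adjusted p 0.538 and 0.200). For H13 over Mcts2 the log2 ratio was -0.20 and -0.26 in group A, against 0.59 and 0.60 in group B. Nnat, a small membrane proteolipid of neurons and endocrine cells, had 1172, 1400, 899 and 777, and Blcap, the gene around it, had 3034, 3373, 3773 and 3554. The authors' deposited table gives -0.62 for Nnat (adjusted p 0.0947) and 0.19 for Blcap (adjusted p 1). Their log2 ratio of host to nested gene was 1.37 and 1.27 in group A and 2.07 and 2.19 in group B.

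Nap1l5, of the nucleosome assembly protein family, was scarce, with 97.6, 72.2, 56.8 and 42.6. Herc3, a HECT-domain ubiquitin ligase around it, had 785, 658, 1010 and 1049, and the ratio rose from 2.99 and 3.17 to 4.13 and 4.59 on the log2 scale. By the authors' deposited table Nap1l5 stands at -0.77 (adjusted p 0.722) and Herc3 at 0.51 (adjusted p 0.259). Zrsr1, a splicing-factor-like retrogene, had 2893, 2593, 2612 and 2087, and Commd1, a copper and NF-kappaB regulator, had 3134, 3134, 3199 and 3527. This pair differed least, with log2 ratios of 0.12 and 0.27 in group A and 0.29 and 0.76 in group B.

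Peg13 went the other way. This paternal noncoding RNA had 154, 96.9, 215 and 525 normalized counts, and Trappc9, a trafficking subunit around it, had 3382, 3797, 2657 and 2995. The authors' deposited table gives 1.56 for Peg13 (adjusted p 0.769) and -0.35 for Trappc9 (adjusted p 0.535). In limma Peg13 ranged from 0.81 to 2.09 when 1 library was left out. The ratios of host to nested gene did not overlap between the groups at any of the 5 loci, higher in B for 4 and lower for 1. For every pair but Zrsr1 and Commd1, host and nested gene each separated the groups, in opposite directions. The ratios of those pairs therefore had to separate, and they add nothing to the values of the single genes. Of single genes 52.5% had groups that did not overlap, and no such share was computed for pairs of genes. With 2 libraries against 2 the exact permutation test, two-sided, gave p = 0.333 for each pair, the smallest it allows. Mcts2 and H13, like Peg13 and Trappc9, lie on the same strand, and the rule by which overlapping reads were counted is not given. Mcts2 and Zrsr1 also have parent genes on the X chromosome, Mcts1 and Zrsr2, which are listed at 0 like the rest of that chromosome. Aligned parts of the GENCODE M21 transcripts were 83.9% identical for Mcts2 and 79.8% for Zrsr1, and no 50-base window was shared.

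**Figure D5:**
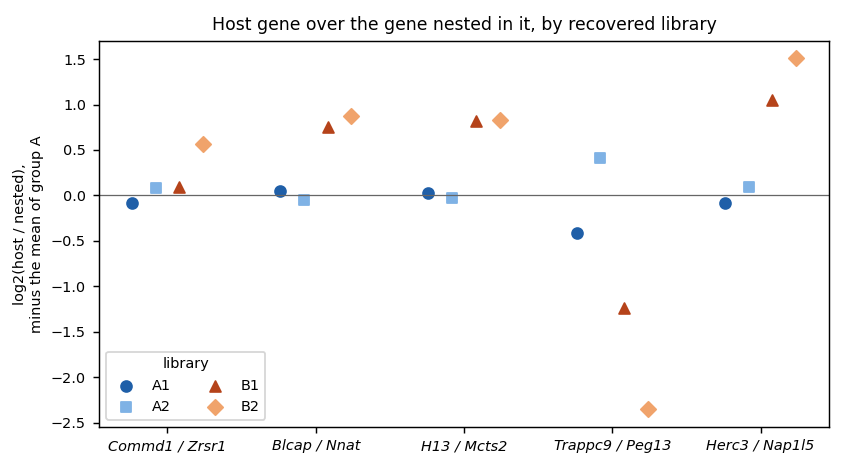
Log2 ratio of the host gene to the gene nested in it, from normalized count plus 1 and minus the mean of group A, at 5 imprinted loci in each recovered library. Points of group B lie above those of group A for 4 pairs, closest for Commd1 and Zrsr1, and below them for Trappc9 and Peg13.

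At the Snrpn-Ube3a locus, the region of Prader-Willi and Angelman syndromes, the libraries of group B differed from each other. Snrpn, a paternally expressed spliceosomal protein gene, had 1550, 1941, 902 and 3813 normalized counts. B2 was thus 4.23-fold above B1, the widest gap between B libraries among the 44 genes, and both A libraries lay between them. The authors' deposited table puts Snrpn at 0.43 (adjusted p 1). In limma it turned from 1.14 without B1 (adjusted p = 0.0326) to -0.94 without B2 (adjusted p = 0.0529). Snhg14, a noncoding RNA of the same locus, had 885, 1037, 628 and 1829, again with B1 lowest and B2 highest. Ube3a, a ubiquitin ligase imprinted in neurons, had 9290, 9256, 7986 and 6508, with both B libraries lower (-0.36 and adjusted p 0.549, by the authors' deposited table). Ndn, Magel2, Mkrn3 and Peg12, intronless genes upstream, had means from 52.6 for Magel2 to 692 for Ndn, and the authors' deposited table puts them between -0.31 for Mkrn3 and 0.95 for Magel2. None passed.

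At the Peg10 and Mest loci no gene passed. Peg10 had 94219, 102770, 93691 and 105408 normalized counts, with the groups overlapping. Its neighbour Sgce, a sarcoglycan mutated in myoclonus-dystonia, had 1415, 1350, 1426 and 1993, and Ppp1r9a, the actin-binding neurabin, had 4339, 5174, 3891 and 4622. The authors' deposited table gives the locus log2 values from -0.16 for Ppp1r9a to 0.31 for Sgce, each at an adjusted p of 1. Mest, a paternal gene of mesoderm and growth, had 3719, 3442, 4112 and 3057, and Copg2, a coatomer subunit on the other strand with an overlapping end, had 7116, 7813, 7833 and 8790. Means of group A and group B were 3580 and 3585 for Mest in the authors' deposited table.

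Peg3, a zinc finger gene of maternal behaviour and growth, had 2101, 2363, 1988 and 2609 normalized counts, which overlapped between the groups. Its maternal neighbour Zim1 had a mean of 110 and the protease gene Usp29 one of 25.6, at -0.57 (adjusted p 0.742) and -0.08 (adjusted p 1) by the authors' deposited table. Zdbf2, a paternally expressed gene that affects growth, had 12239, 14506, 15822 and 14656. Impact, an inhibitor of the kinase GCN2, had 20869, 16504, 17077 and 15065, and Inpp5f, an inositol phosphatase, had 2789, 2839, 3506 and 3667. Both B libraries were higher for Zdbf2 and Inpp5f, and the groups overlapped for Impact. The authors' deposited table puts Inpp5f at 0.35 (adjusted p 0.557). The Gnas locus, which encodes the stimulatory G protein, had 506, 534, 550 and 668, or 50.5 per kb. Its antisense RNA Nespas had a mean of 252. Gnas overlaps Nespas and other annotated transcripts, so its level is uncertain.

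Of all tested genes around these loci, no larger share passed the threshold. Of 331 tested genes within 250 kb of a listed gene, 8 passed in the authors' deposited table, 4 higher and 4 lower, which is 2.42% beside 3.46% of all genes. No neighbour of Plagl1 was among the 8. Of the genes within 250 kb only 141 had a mean of at least 10, and all 8 were among those. Over all genes 20465 of 30237 tested had such a mean. Scarce genes thus weigh more in the share of the neighbours, and the shares among genes with such a mean are not given. Of 27 tested imprinted genes outside the list, 2 were higher and 4 lower, again in the authors' deposited table. Over all genes 1.54% were higher and 1.92% lower, so these imprinted genes had a larger share. They were chosen with earlier results of these data known. Those that passed include the cell-cycle inhibitor Cdkn1c, at -2.87 (adjusted p 1.35e-20) by the authors' deposited table. Its neighbours Phlda2 and Slc22a18 were at -1.75 and -1.13, and Airn, the antisense RNA of Igf2r, was at 2.26 in the authors' deposited table.

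Factors that keep imprints did not pass. Shares over all genes, to set beside the counts that follow, were 3.46% past the threshold and 10.5% at an unadjusted p under 0.05 in the authors' deposited table, and 2.01% and 20.7% in limma. Of 15 maintenance factors 0 were higher and 0 lower in the authors' deposited table, with 2 at an unadjusted p under 0.05, and limma called 0 of 15 with 6 at an unadjusted p under 0.05. Trim28 was at -0.26 and Uhrf1, which brings DNMT1 to replicated DNA, at -0.05 by the authors' deposited table (adjusted p 0.889 and 1). Zfp57, named after its values were seen because it reads the hexamer above, had 67370, 68781, 52079 and 49457 normalized counts. Both B libraries were lower, and the authors' deposited table puts it at -0.42 (adjusted p 0.269). Of 10 enzymes that set or remove methylation 0 passed either way and 5 had an unadjusted p under 0.05 in the authors' deposited table, and limma called 0 of 9 with 4 at an unadjusted p under 0.05. Dnmt3l, a cofactor of de novo methylation, was at -0.52 (adjusted p 0.104) and Dnmt3b at 0.10 (adjusted p 1) in the authors' deposited table. Among 15 partners of IGF and DLK1 signalling 1 passed, Igf2bp2, a protein that binds Igf2 mRNA, with 15468, 14912, 23374 and 22245 normalized counts. The authors' deposited table puts Igf2bp2 at 0.59 (adjusted p 0.0350).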

How the data were processed

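Per the submitters' processing notes, STAR, DESeq and the build mm10 were used. Versions, read counter, strandedness of counting, annotation release and filters are not stated in those notes. Per the file headers, the deposited table holds means of normalized counts (a signal: reads over size factor), a fold change, the log2 of that ratio, and p-values with and without adjustment, all made by the authors. Their test was taken unchanged as the main result. Its 46608 rows hold 46603 gene IDs, and the 5 repeats were used once.

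Each group mean is a sum of whole reads of 2 libraries times 2 steps. With the steps read from the smallest means, 100% of the 28616 nonzero means of group A and of the 28353 of group B came out whole within 1e-06. A second pair of counts was also within this tolerance for 1700 genes in group A and 11 in group B. The closest pair was taken, and the next lay at least 20.5 times farther from whole in group A and 201 times in group B. Within each group the library with the higher total is numbered 1. Totals were 143182371 (A1), 134463318 (A2), 146326307 (B1) and 112655210 (B2). As an alternative, log2(normalized count + 1) was tested with limma 3.58.1 (R 4.3.3, variance trend, Benjamini-Hochberg adjustment) for 20465 genes whose mean reached 10. Scarce genes rest on few reads (Usp29 on 22 to 28 a library), so counting error limits their values. The recovery of reads and the main limma fit were also run on simulated counts, whereas the other limma settings were not. Positions and exon lengths are from GENCODE M21 (46091 IDs matched, 512 did not). Promoters are from RefSeq, GRCm38.p6.

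The genes and lists were chosen with earlier results of these data known. By rule, library values were to be printed for listed genes past the threshold, for all listed genes of their locus, and for those with a mean of at least 1000, and other listed genes by range. Library values of other listed genes, and the pairing of nested genes with hosts, were added after the values were seen. From other lists, up to 4 members with the smallest adjusted p past the threshold were named, or else the 2 with the highest mean.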

Additional observations from a re-analysis of the deposited data

How the results depend on the processing

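Plagl1 passed the threshold, and was the only listed gene to do so, with the deposited test at an adjusted p of 0.05 and 0.01 and in limma under both other scalings, pseudocounts of 0.5 and 5, no filter and a mean of at least 50. At an adjusted p of 0.1 the deposited test called 3 genes at 3 loci (Plagl1, Grb10 and Nnat). The share of all genes at that threshold is not given. Leaving out 1 library in limma gave 0 to 7 genes at 0 to 6 loci, and the log2 fold change of Plagl1 ranged from 1.19 to 1.502, missing the threshold without A1 and without A2. The fit without 1 library takes its spread from the other group's pair and assumes that the lone library varies alike. No conclusion is therefore drawn from how many listed genes passed in these fits. How many of all genes passed in them is given above with Plagl1 and Sfmbt2. Within 100 kb 2 of 235 tested neighbouring genes passed (0.851%) and within 500 kb 15 of 483 (3.11%). Scaling alternatives chosen after seeing the data left 28 (total count) and 27 (upper quartile) genes with groups that do not overlap, and 3 and 2 in the order of the feeder markers. Shares of all genes under these scalings are not given. No paired analysis was possible because the recovered libraries carry no replicate number.

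Signs turned for 3 genes under other settings. Igf2 was at -0.011 in limma (also with both other pseudocounts and both other filters), -0.024 with total-count and -0.032 with upper-quartile scaling, and Mest at -0.013, -0.026 and -0.034. Peg10 was at -0.0069 with upper-quartile scaling. Leaving out 1 library turned 12 genes: H19 (-1.02 to 0.44), Igf2 (-0.73 to 0.71), Peg3 (-0.16 to 0.23), Usp29 (-0.15 to 0.0016), Peg10 (-0.071 to 0.10), Mest (-0.23 to 0.20), Snrpn (-0.94 to 1.14), Ndn (-0.080 to 0.43), Nespas (-0.51 to 0.15), Dlk1 (-0.44 to 0.54), Dio3 (-0.10 to 1.09) and Gab1 (-0.38 to 0.015). The cause was not tested.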
